A study of Mus musculus with 6 samples.

Results

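The genes described here were Lbp, Cp, Clu, Lcn2 and Saa3, 5 of the 34187 genes in the deposited matrices, and their transcripts were followed in tumor epithelial cells, fibroblasts and macrophages of treated pancreatic tumors. The 5 genes had been chosen from earlier results of these same data, in which their levels in those cells and the higher Clu of macrophages after IL10/2-Trikine had been seen, so their treatment differences in the 3 cell classes are given as descriptions without a test. Tumor epithelial barcodes were those with at least 5 unique molecular identifiers (UMIs, each standing for 1 captured RNA molecule) of the keratins Krt8 and Krt18 and none of the leukocyte gene Ptprc. Of 44412 barcodes in PBS, 10325 met this rule, as did 7670 of 30528 after mono-IL10 and 22173 of 55504 after IL10/2-Trikine.

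All mice were C57BL/6 animals given 250000 subcutaneous 6694c2vTRP1 cells, a single pancreatic tumor line, so the tumor cells of all 3 groups descend from 1 line. The groups received PBS, the monomeric cytokine mono-IL10 at 26 µg per mouse, or IL10/2-Trikine at 30.6 µg per mouse, in 2 intraperitoneal doses from day 8, and tumors were taken on day 14. IL10/2-Trikine joins monomeric IL-10 to an IL-2 variant that engages the IL-2 receptor beta chain, and the study asked what this adds to IL-10 alone. CD45+ cells had been isolated with magnetic beads, labeled with 1 hashtag antibody per mouse and pooled into 1 library per treatment, with 5 hashtags in each. Treatment and library therefore cannot be told apart, and the tumor cells and fibroblasts described here are cells that the bead isolation did not remove. The PBS mice entered a pair of comparisons and so did the mono-IL10 mice, so the 3 comparisons are not independent.

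Acute-phase genes encode secreted proteins that rise in blood during infection, injury and cancer, mostly from the liver, under the control of IL-6 acting through STAT3, and of IL-1 and TNF acting through NF-kB and C/EBP factors. Epithelial and tumor cells can make several of them locally. Lbp encodes the lipopolysaccharide-binding protein that hands bacterial lipid to Cd14. Cp encodes ceruloplasmin, a copper-carrying ferroxidase that works with the iron exporter ferroportin (Slc40a1). Clu encodes clusterin, a secreted chaperone. Lcn2 encodes lipocalin 2, which binds iron-loaded bacterial siderophores and is stored in neutrophil granules. Saa3 encodes a serum amyloid A protein made mainly outside the liver, including by macrophages.

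Promoter sequences were looked up in RefSeq (mouse build GRCm38.p6), and 3 of the 5 genes, Cp, Lcn2 and Saa3, were matched. They are shown because Cp and Lcn2 were detected in tumor cells of every mouse, whereas Saa3 was nearly absent from them. Each line is the 250 bases before the transcription start, 5′ to 3′ on the strand of the gene. Capitals mark matches to the C/EBP pattern TTNNGNAA on either strand. The table holds a pair of overlapping Cp promoters, of which the first is shown, at chr3:19956804-19957053 on the plus strand, with the Lcn2 promoter at chr2:32387740-32387989 on the minus strand and the Saa3 promoter at chr7:46715677-46715926 on the minus strand.
Cp: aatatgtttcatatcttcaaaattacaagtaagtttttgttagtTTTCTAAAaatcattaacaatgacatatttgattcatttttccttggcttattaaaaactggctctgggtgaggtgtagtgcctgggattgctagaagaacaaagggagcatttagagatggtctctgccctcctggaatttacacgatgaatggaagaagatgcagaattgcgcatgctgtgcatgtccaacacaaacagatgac
Lcn2: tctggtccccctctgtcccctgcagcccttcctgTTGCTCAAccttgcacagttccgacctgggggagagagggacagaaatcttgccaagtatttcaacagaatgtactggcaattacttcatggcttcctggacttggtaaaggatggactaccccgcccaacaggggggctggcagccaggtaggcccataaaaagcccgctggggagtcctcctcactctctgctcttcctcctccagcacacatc
Saa3: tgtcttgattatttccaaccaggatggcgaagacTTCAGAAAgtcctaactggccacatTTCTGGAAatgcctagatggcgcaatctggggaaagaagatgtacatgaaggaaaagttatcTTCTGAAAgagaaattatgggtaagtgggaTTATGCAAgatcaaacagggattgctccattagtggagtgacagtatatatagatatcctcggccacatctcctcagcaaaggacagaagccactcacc

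The Saa3 window held 4 such matches, beginning 216, 191, 129 and 99 bases before the start, and the Cp and Lcn2 windows 1 each, 206 and 216 bases before it. The second Cp promoter, at chr3:19956999-19957248, held 1 as well, beginning 70 bases before its start. A match was present in 36.8% of 32851 mouse promoters of this length. The STAT pattern TTCNNNGAA was found in 7.02% of all promoters and a pattern for NF-kB in 4.11%, on either strand, and neither was found in these windows. A match describes letters in the window and is not a binding site.

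A mouse was the unit of comparison, and the libraries held 364814102 to 515236552 gene UMIs. Barcodes with at least 1000 detected genes, at most 10% mitochondrial UMIs and exactly 1 hashtag were summed per mouse, and levels are given as CPM, the UMIs of a gene per 1000000 UMIs of that mouse and cell class. Because each UMI is 1 molecule, CPM of different genes are compared without a correction for length. Tumor epithelial cells with 1 hashtag numbered 5018 for PBS, 4350 for mono-IL10 and 9824 for IL10/2-Trikine, 581 to 2616 per mouse. These were 49.8%, 57.9% and 45.0% of the tumor barcodes past the filters, whose median depth was 19184, 28278 and 8817.5 UMIs. Past the filters, 12.1%, 8.50% and 12.2% of all barcodes carried several hashtags and were left out as likely doublets. Most of the tumor barcodes left out had no hashtag call instead. These were 4629 of 10069, 2925 of 7508 and 10574 of 21816, while 422, 233 and 1418 carried several. Among macrophage-like barcodes 257 of 10529, 106 of 7080 and 488 of 7231 had no call. A second hashtag rule, a leading hashtag of at least 10 UMIs and 3 times the next, chose other tumor barcodes. It called 4159, 5052 and 9967 of them, of which 2914, 3778 and 6597 were also called by the first rule. Of these, 99.1% to 100% went to the same mouse. Both rules read the same hashtag counts, so this share does not test whether barcodes were given to the right mouse. Tumor cells per mouse under the second rule numbered 0.337 to 2.79 times those of the first. For macrophage-like cells the range was 0.848 to 1.17 times. The libraries shared 873 to 1165 cell barcodes with another library, and these were kept. The epithelial label was borne out for keratin 19 (Krt19), which had a UMI in 95.7%, 97.1% and 92.8% of tumor barcodes, and for Krt7 and Muc1, which had one in 51.2% to 70.6%. Epcam was found in 8.92% to 11.2% of them and Cldn4, a claudin, in 3.68% to 13.2%, and Ptprc was at 0 by the choice of barcodes.

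In tumor epithelial cells the order of the members was Clu, Cp, Lbp, Lcn2 and Saa3 in the means of all 3 treatments. Clu stood at 3205 CPM ± 247 (SD, n = 5) in PBS, above the keratin Krt8 at 2235 CPM over all PBS tumor barcodes, and Cp at 1280 CPM ± 77.7 (SD, n = 5). Lbp followed at 121 CPM ± 7.92 (SD, n = 5) and Lcn2 at 76.2 CPM ± 19.5 (SD, n = 5). The ranges of Lbp and Lcn2 did not overlap in PBS, whereas in mono-IL10 the highest Lcn2 mouse, at 94.8 CPM, came close to the lowest Lbp mouse, at 99.3 CPM. Saa3 was at 0.518 CPM ± 0.398 (SD, n = 5) in PBS, so its name as an acute-phase gene of the tumor cells is not borne out by its level there. Only 39 of 5018 PBS tumor cells held a Saa3 UMI. Its liver relatives Saa1 and Saa2 were at 0.0235 and 0 CPM in the same cells.

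The chaperone gene Clu was at 3201, 3329, 3161, 2833 and 3501 CPM in the 5 PBS mice, at 3162, 3530, 3743, 3612 and 3191 CPM in the mono-IL10 mice and at 2743, 3003, 3038, 3384 and 3630.0 CPM in the IL10/2-Trikine mice. The 3 groups overlapped. The log2 fold change was -0.0013 ± 0.08 (SE) for IL10/2-Trikine against PBS, 0.22 ± 0.08 for mono-IL10 against PBS and -0.22 ± 0.08 for IL10/2-Trikine against mono-IL10.

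The ferroxidase gene Cp was at 1318, 1294, 1191, 1215 and 1382 CPM in PBS, at 1122, 1286, 1172, 1285 and 1266 CPM in mono-IL10 and at 1392, 1281, 1159.6, 1291 and 1319 CPM in IL10/2-Trikine. No group stood apart from another. Its log2 fold changes were 0.03, 0.05 and -0.02, in the order used for Clu, each with an SE of 0.05, and the second was -0.062 when library totals replaced TMM scaling. The interval for IL10/2-Trikine against PBS ran from -0.09 to 0.14, the narrowest of the 5 members.

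Lbp was at 119.8, 123.7, 114.7, 114.6 and 133.7 CPM in PBS, at 99.3, 147.5, 110.97, 126.5 and 122.0 CPM in mono-IL10 and at 91.8, 102.0, 120.7, 104.4 and 115.5 CPM in IL10/2-Trikine. With IL10/2-Trikine, 3 of 5 mice lay below every PBS mouse and 1 below every mono-IL10 mouse. The log2 fold change was -0.16 ± 0.09 (SE) against PBS and -0.27 ± 0.09 against mono-IL10.

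Lcn2 varied most among mice of 1 group among the 4 members that tumor cells expressed. It was at 66.6, 88.0, 61.7, 104.8 and 60.1 CPM in PBS, at 42.2, 61.5, 70.3, 94.8 and 29.1 CPM in mono-IL10 and at 83.1, 50.3, 47.4, 80.4 and 51.6 CPM in IL10/2-Trikine. The groups overlapped, and the fold changes of -0.28 ± 0.27 and -0.25 ± 0.26 (log2, SE) against PBS had intervals reaching from -0.84 to 0.29 and from -0.80 to 0.31.

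**Figure D1:**
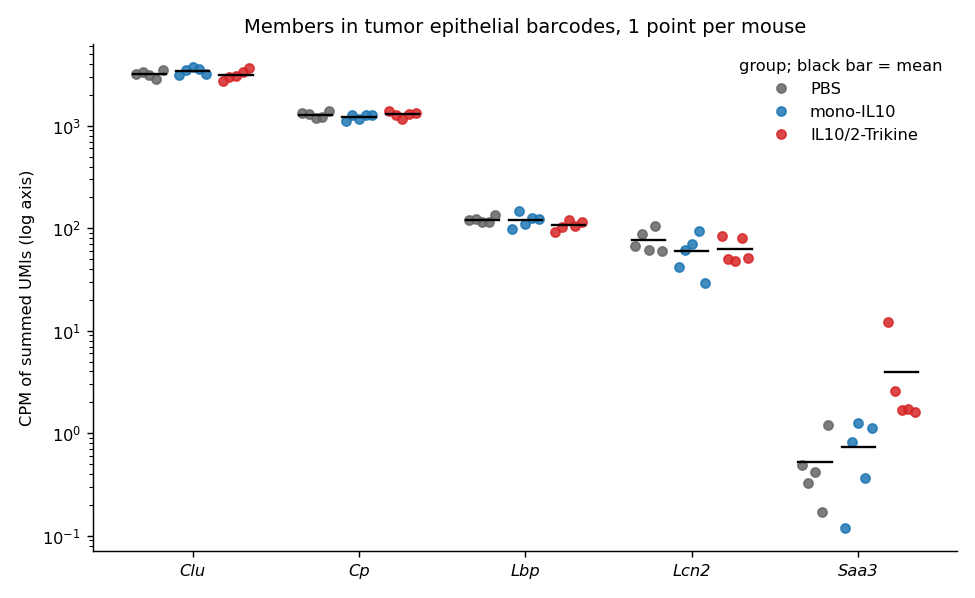
Level of each member in tumor epithelial cells, in CPM on a log axis, with 1 point per mouse and a bar at the mean of the 5 mice of a treatment. Clu, Cp, Lbp and Lcn2 overlap between all treatments, and the 5 IL10/2-Trikine mice lie above all PBS mice only for Saa3, from 1.61 to 12.1 CPM.

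Saa3 was the 1 member of 5 whose mice did not overlap between IL10/2-Trikine and PBS, in a comparison where 16.9% of 14910 genes did not overlap. Against mono-IL10 it was again the only one, where 23% of genes did not overlap, and for mono-IL10 against PBS 0 of 5 members separated the mice, where 11.1% of genes did. These counts use the contrast by which the genes were chosen, and they depended on the choice of cells. With at least 20 keratin UMIs Lbp also separated IL10/2-Trikine, at 87.6 to 92.7 CPM, from PBS, at 97.9 to 123 CPM, while Saa3 overlapped between IL10/2-Trikine and mono-IL10. That limit asks for more keratin per UMI in shallower barcodes. Tumor barcodes past the filters had median depths of 19184, 28278 and 8817.5 UMIs in PBS, mono-IL10 and IL10/2-Trikine. Under it the Lbp means went from 121, 121 and 107 CPM to 110, 110 and 89.4 CPM. The part of depth was not tested, and the share of all genes that separated the mice was not counted. With the second hashtag rule Saa3 overlapped between IL10/2-Trikine, from 1.34 CPM, and PBS, up to 1.4995 CPM, with a log2 fold change of 2.67. Saa3 was at 0.484, 0.325, 0.414, 0.170 and 1.20 CPM in PBS, at 0.119, 0.818, 1.25, 0.363 and 1.11 CPM in mono-IL10 and at 12.1, 2.56, 1.69, 1.71 and 1.61 CPM in IL10/2-Trikine. All are low levels, resting on 71, 132 and 295 UMIs, and mouse 1 of IL10/2-Trikine stood far above the other mice. The log2 fold change was 2.76 ± 0.66 (SE) for IL10/2-Trikine against PBS and 1.89 without that mouse.

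Macrophage, fibroblast and neutrophil RNA in the tumor barcodes was higher on average with IL10/2-Trikine, as Saa3 was. The 12 macrophage markers summed to 134 to 190.0 CPM in PBS, 74.1 to 125 CPM in mono-IL10 and 258 to 1501 CPM in IL10/2-Trikine, and the highest value belonged to the same mouse 1. The 12 fibroblast markers summed to 545 to 921 CPM, 513 to 764 CPM and 747 to 1419 CPM in the same order, again highest in mouse 1 of IL10/2-Trikine, and these ranges overlapped. The 10 neutrophil markers summed to a mean of 76.2, 58.8 and 189 CPM, and the 10 endothelial markers to 49.7, 36.1 and 44.1 CPM. When tumor barcodes with any UMI of 7 macrophage genes were left out, 36.3%, 41.3% and 60.4% of tumor cells remained. Saa3 then stood at 0.914, 0.474 and 2.30 CPM, with a log2 fold change of 1.16 for IL10/2-Trikine against PBS and an interval from -0.25 to 2.57. The mice then overlapped, from 0.123 to 3.26 CPM in PBS and from 1.07 to 5.64 CPM in IL10/2-Trikine. This exclusion was chosen after the data had been seen. It removes deep cells more readily. Median depth was 19184, 28278 and 8817.5 UMIs in tumor barcodes of PBS, mono-IL10 and IL10/2-Trikine. The shares that remained therefore do not rank the treatments by macrophage RNA. In the macrophage-like cells themselves Saa3 was higher with both cytokines than with PBS, at a mean of 32.8 CPM with IL10/2-Trikine. In fibroblast-like cells it was at a mean of 149 CPM with IL10/2-Trikine and 467 CPM in mouse 1. There 1 fibroblast-like cell held 158 of the 306 Saa3 UMIs of IL10/2-Trikine. The part of macrophage and of fibroblast RNA in the Saa3 of tumor barcodes was not tested.

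Among single tumor cells Clu and Cp were nearly universal and Lbp and Lcn2 were not. A Clu UMI was present in 99.6% to 99.8% and a Cp UMI in 97.1% to 99.1% of cells in the 3 libraries. An Lbp UMI was present in 60.8% (PBS), 68.5% (mono-IL10) and 46.3% (IL10/2-Trikine) of cells, and an Lcn2 UMI in 31.7%, 32.9% and 22.4%, in the order of the libraries' depth. With every cell thinned to 2000 UMIs, which left out 31, 15 and 81 cells, the median shares over mice were 18.0%, 18.9% and 17.8% for Lbp and 8.06%, 8.26% and 7.86% for Lcn2. The gaps between treatments seen without thinning were thus not present at equal depth. Thinned Clu was found in 94.7%, 96.4% and 95.1% of cells and thinned Cp in 82.3%, 82.8% and 83.8%. In the T and NK cells annotated by the authors, which should lack these genes, the thinned medians were 0% in every treatment for Lbp, Cp and Lcn2, at median depths of 2780, 3959 and 2635 UMIs before thinning. For Clu they were 1.96%, 2.94% and 6.45%.

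Lcn2 and Lbp were spread unevenly over tumor cells. The 1% of cells with the most Lcn2 held 23.7%, 24.7% and 23.4% of its UMIs in PBS, mono-IL10 and IL10/2-Trikine. For Lbp the top 1% held 16.5%, 17.7% and 15.6%, against 5.14%, 5.07% and 4.48% for Clu. The median tumor cell carried 5 to 7 Clu UMIs per 2000, depending on the mouse, and 2 Cp UMIs. Cp and Clu rose and fell together weakly over the thinned cells of a mouse, with Spearman's rho from 0.20 to 0.30 over 15 mice, and Lbp and Cp with rho from 0.15 to 0.24. These are descriptions over cells that share a library and a mouse.

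Tumor cells that differed in state also differed in their levels of the members. In cells with at least 3 UMIs of the trefoil factor genes Tff1 and Tff2, which mark a mucous secretory state, Lbp was lower than in cells without them in 15 of 15 mice, with medians of 76.0 and 123 CPM. Cp was lower there in 14 of 15 mice, at 1092 against 1301 CPM. Clu and Lcn2 were each lower in 7 mice and higher in 8. The trefoil cells were somewhat deeper, with a median of 28239.5 against 23124 UMIs, and the smallest mouse gave 38 of them.

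The chromatin gene Hmga2, which marks poorly differentiated pancreatic tumor cells, split the cells along other members. Lcn2 was lower in cells with an Hmga2 UMI than in cells without one in 14 of 15 mice, with medians of 57.6 and 120.0 CPM. Clu was lower in 14 of 15 mice as well, at 3163 against 3608 CPM, while Lbp and Cp were each lower in 9 and higher in 6. Cells with an Hmga2 UMI were deeper, at a median of 25672 against 14041.5 UMIs, and the part of depth in the difference was not tested.

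**Figure D2:**
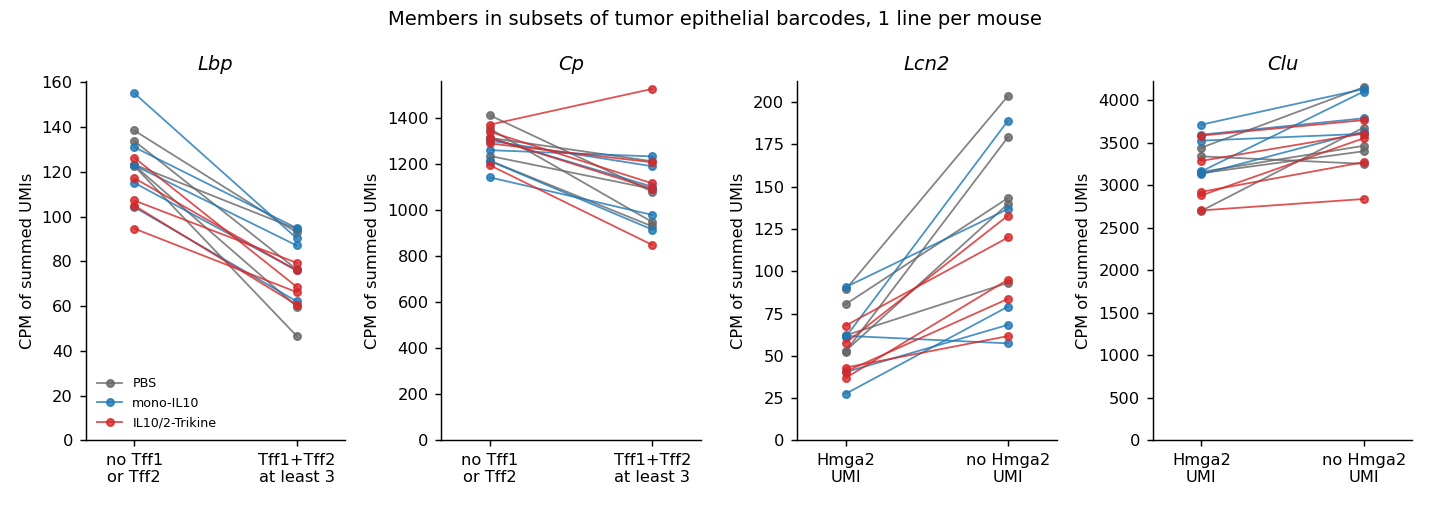
Levels of the members in CPM in tumor epithelial cells with and without trefoil factor UMIs and with and without an Hmga2 UMI, with 1 line per mouse joining its 2 values on linear axes that start at 0. Lbp is lower in trefoil cells in all 15 mice, and Lcn2 is lower in Hmga2 cells in 14 of 15.

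Barcodes just outside and just inside the keratin threshold were compared once, as a description. With 3 to 4 keratin UMIs, Lcn2 was at 21.7 CPM in PBS, 6.29 CPM in mono-IL10 and 60.3 CPM in IL10/2-Trikine, against 69.98, 38.0 and 54.4 CPM with 5 to 6. Lbp was at 568, 584 and 317 CPM outside and 432, 617 and 243 CPM inside, above the level of the whole tumor class on both sides. Clu was at 2985, 2324 and 4243 CPM outside and 3676, 2930.3 and 4027 CPM inside. Lcn2 and Clu were thus higher inside for PBS and mono-IL10 and lower inside for IL10/2-Trikine.

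Over the 15 mice, with the mean of each treatment subtracted, the genes most like each member in tumor cells were named by Pearson's r of log2 CPM among about 6238 genes of at least 20 CPM, as a description. Lbp was closest to Atg12 (r 0.93), Paip2 (0.91) and the fibronectin gene Fn1 (0.88). Cp was closest to Otud5 (0.91), Mbp (0.88) and Tpp1 (0.87). Clu was closest to Traf4 (0.88), mt-Co2 (0.84) and the tight junction gene Tjp1 (0.82). Lcn2 was closest to Tm4sf20 (0.95), the microvillus gene Pls1 (0.92) and the esterase gene Ces2g (0.92). Saa3 was closest to the lysosomal protease genes Ctsb (0.92) and Lgmn (0.88) and to Crem (0.89), but these rested on IL10/2-Trikine mouse 1, in which macrophage and fibroblast markers were also highest, and were 0.66, 0.42 and 0.43 without it. Between members r was 0.56 for Cp and Saa3, 0.51 for Lbp and Clu, and from -0.28 to 0.29 for the other pairs.

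**Figure D3:**
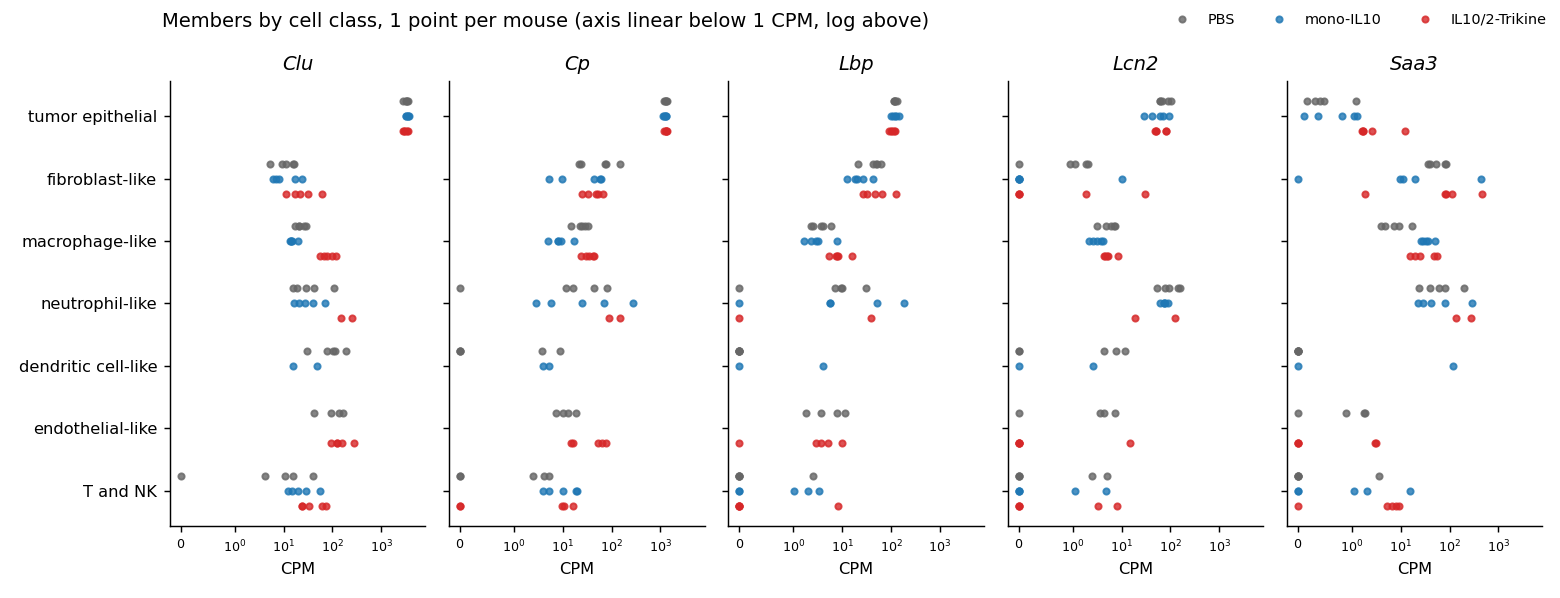
Level of each member in 7 cell classes, in CPM on an axis that is linear below 1 and logarithmic above, with 1 point per mouse of at least 20 cells. Clu and Cp are highest in tumor epithelial cells, Lcn2 overlaps between tumor epithelial and neutrophil-like cells, and Saa3 is higher in fibroblast-like, macrophage-like and neutrophil-like cells than in tumor epithelial cells in PBS.

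In fibroblast-like cells Saa3 ran from 0 to 467 CPM over the 15 mice. These cells carried the matrix gene Sparc in 99.9% to 100% of barcodes, and 391, 291 and 406 of them had 1 hashtag. Saa3 was at 39.7, 53.6, 85.6, 78.7 and 36.0 CPM in PBS, at 438, 9.79, 0, 11.2 and 19.6 CPM in mono-IL10 and at 467, 1.88, 110.1, 85.6 and 81.6 CPM in IL10/2-Trikine. In each treated group 1 mouse held most of the signal, and in mono-IL10 the other 4 mice lay below every PBS mouse. The log2 fold change of mono-IL10 against PBS was 0.32 ± 0.98 (SE) with all mice and -2.29 without mono-IL10 mouse 1, which gave 28 fibroblast-like cells. Between IL10/2-Trikine and mono-IL10 it was 0.91, and it ran from -0.17 without IL10/2-Trikine mouse 1 to 3.51 without mono-IL10 mouse 1. Saa3 UMIs came from 29, 15 and 18 cells, and the top 1% of cells held 55.3%, 83.6% and 80.7% of them. The cell with the most held 50 of 331 UMIs in PBS, 142 of 275 in mono-IL10 and 158 of 306 in IL10/2-Trikine.

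Lbp and Cp were also present in fibroblast-like cells. Lbp was at 43.5, 50.5, 49.9, 61.9 and 21.4 CPM in PBS, at 26.7, 17.9, 12.4, 42.5 and 20.1 CPM in mono-IL10 and at 127, 26.4, 32.4, 66.5 and 47.6 CPM in IL10/2-Trikine. With mono-IL10, 3 of 5 mice lay below every PBS mouse, and the log2 fold change was -0.85 ± 0.37 (SE). For IL10/2-Trikine against mono-IL10 it was 1.19 ± 0.39. Cp ranged from 5.31 to 148 CPM over the 15 mice, with group means of 68.5, 35.8 and 44.6 CPM in PBS, mono-IL10 and IL10/2-Trikine and SDs of 51.5, 26.8 and 16.2 CPM. With 0 keratin UMIs allowed the Cp means were 30.5, 28.3 and 40.2 CPM, and the log2 fold change of IL10/2-Trikine against PBS went from -0.49 to 0.40.

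Clu was far below its tumor level in fibroblast-like cells, with means of 11.6 CPM ± 4.64 for PBS, 12.5 CPM ± 7.84 for mono-IL10 and 28.6 CPM ± 19.5 for IL10/2-Trikine (SD, n = 5 each). With IL10/2-Trikine 4 of 5 mice lay above every PBS mouse, and the log2 fold change was 1.40 ± 0.45 (SE), or 2.74 where fewer than 5 keratin UMIs were allowed. Clu stood at 0.363%, 0.363% and 0.906% of its tumor level in PBS, mono-IL10 and IL10/2-Trikine, and the 5 tumor markers at 0.555%, 0.385% and 0.611% of theirs. The part of tumor RNA in this Clu was not tested. Lcn2 was at or near 0 in most mice and was not fitted. Of the 4 members fitted, 0 separated the mice in any comparison, against 3.4%, 2.11% and 5.55% of 7152 genes for IL10/2-Trikine against PBS, mono-IL10 against PBS and IL10/2-Trikine against mono-IL10. The 12 macrophage markers summed to 175 to 1120 CPM in the fibroblast-like cells of IL10/2-Trikine, against 235 to 587 CPM in PBS and 185 to 234 CPM in mono-IL10, and their part in the result was not tested.

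In macrophage-like cells Clu and Saa3 differed between treatments in different ways. These cells carried Apoe in 97.3% to 98.6% and Lyz2 in 96.6% to 99.6% of barcodes. With 1 hashtag the treatments gave 9068 (PBS), 6424 (mono-IL10) and 5878 (IL10/2-Trikine) of them. Clu was at 28.3, 20.6, 26.0, 17.1 and 20.6 CPM in PBS, at 13.9, 15.01, 13.4, 14.3 and 19.3 CPM in mono-IL10 and at 55.4, 68.4, 100.5, 76.1 and 119 CPM in IL10/2-Trikine. Every IL10/2-Trikine mouse was above every mouse of both other groups. The log2 fold change was 2.31 ± 0.19 (SE) against mono-IL10 and 1.81 ± 0.18 against PBS, and that of mono-IL10 against PBS was -0.49 ± 0.18. Clu UMIs came from 735, 600 and 688 cells in PBS, mono-IL10 and IL10/2-Trikine. The top 1% of cells held 49.0%, 25.1% and 53.0% of them, and the cell with the most held 38, 13 and 54. The part of these few cells in the difference was not tested.

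Saa3 was higher with both cytokines than with PBS in macrophage-like cells. It was at 4.80, 7.30, 3.95, 16.7 and 9.30 CPM in PBS, at 36.8, 50.9, 28.6, 26.2 and 33.1 CPM in mono-IL10 and at 48.3, 15.1, 19.8, 56.0 and 24.9 CPM in IL10/2-Trikine. The mono-IL10 mice lay above every PBS mouse, with a log2 fold change of 2.18 ± 0.34 (SE), and 4 of 5 IL10/2-Trikine mice did so, with 2.00 ± 0.37. Between the cytokines the value was -0.18 ± 0.34. Saa3 UMIs came from 132, 251 and 226 cells, and the top 1% of cells held 91.3%, 79.6% and 72.3% of them.

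Cp in macrophage-like cells was lowest with mono-IL10. It was at 27.8, 32.7, 22.0, 24.6 and 14.96 CPM in PBS, at 7.77, 9.06, 5.04, 8.00 and 16.6 CPM in mono-IL10 and at 29.3, 33.6, 23.6, 42.5 and 41.8 CPM in IL10/2-Trikine. With mono-IL10, 4 of 5 mice lay below every PBS mouse and all 5 below every IL10/2-Trikine mouse. The groups overlapped with 0 Krt8 and Krt18 UMIs allowed, where mono-IL10 reached 17.1 CPM and IL10/2-Trikine began at 12.6 CPM. The log2 fold changes were -1.38 ± 0.24 (SE) for mono-IL10 against PBS, 1.81 ± 0.26 for IL10/2-Trikine against mono-IL10 and 0.43 ± 0.24 for IL10/2-Trikine against PBS. The 12 fibroblast markers summed to means of 1089, 734 and 1418 CPM in these barcodes of PBS, mono-IL10 and IL10/2-Trikine, the order of Cp, and their part in the result was not tested. Lbp had means of 3.67, 3.59 and 8.98 CPM and Lcn2 of 5.68, 3.15 and 5.60 CPM in PBS, mono-IL10 and IL10/2-Trikine. The members whose mice did not overlap were Clu for IL10/2-Trikine against PBS, where 13.6% of 13274 genes did not, Saa3 for mono-IL10 against PBS, where 17.1% did not, and Clu, Cp and Lcn2 for IL10/2-Trikine against mono-IL10, where 15.1% did not. Of these 3, Lcn2 overlapped with the second hashtag rule, Cp with 0 Krt8 and Krt18 UMIs, and both with no UMI of 4 keratins, whereas Clu did not overlap in any of these.

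**Figure D4:**
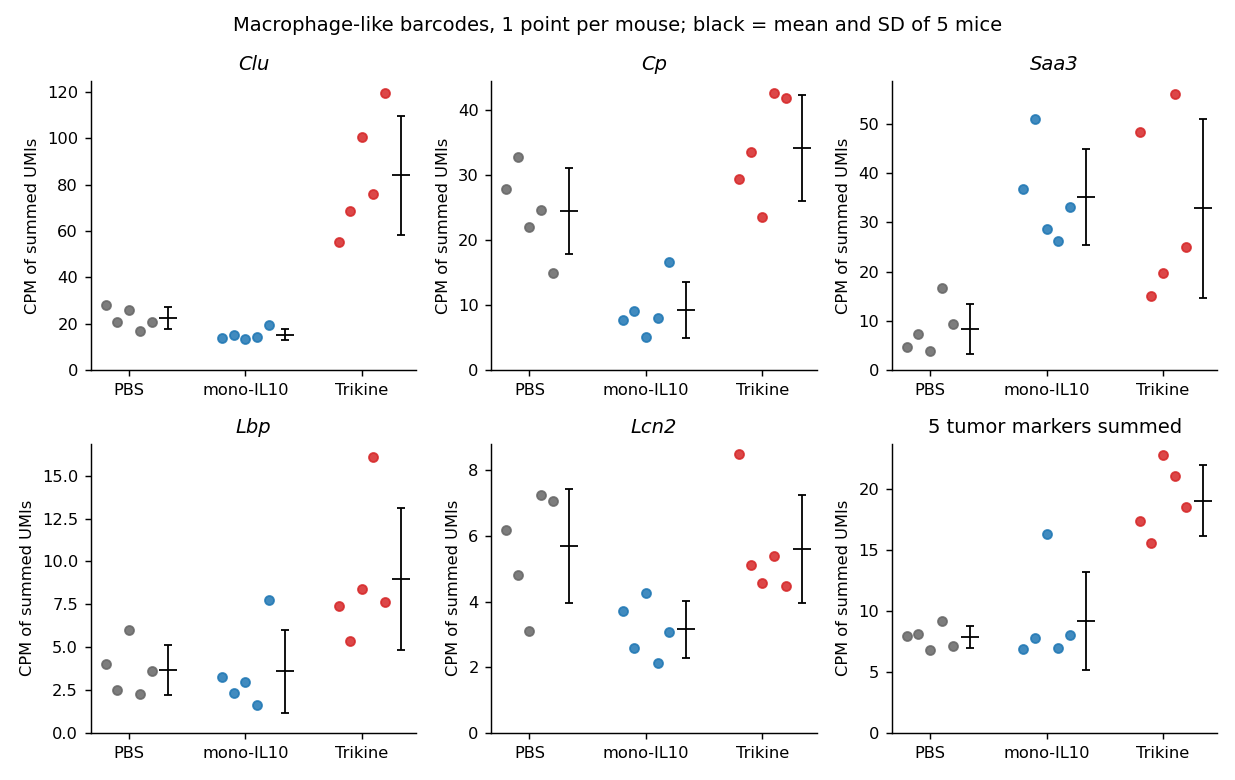
Level of each member in macrophage-like cells, and of the 5 tumor markers Epcam, Krt19, Krt7, Cldn4 and Muc1 summed, in CPM with 1 point per mouse and a black mark for the mean and SD of the 5 mice of a treatment (Trikine is IL10/2-Trikine). Clu with IL10/2-Trikine lies from 55.4 to 119 CPM, above all other mice, and Saa3 is above all PBS mice in every mono-IL10 mouse.

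Tumor RNA in the macrophage-like barcodes was highest with IL10/2-Trikine, as Clu was. The 5 tumor markers Epcam, Krt19, Krt7, Cldn4 and Muc1 summed to 6.83 to 9.20 CPM in PBS, 6.84 to 16.3 CPM in mono-IL10 and 15.6 to 22.8 CPM in IL10/2-Trikine. The mono-IL10 mean was 9.18 CPM, and 7.40 CPM without mouse 3, beside 7.85 CPM in PBS. As a share of the level in tumor cells these means were 0.549%, 0.698% and 1.70%, while Clu in macrophages was 0.703%, 0.441% and 2.66% of its tumor level. Macrophages with a Clu UMI held more tumor marker RNA than those without one, at 13.2 against 7.33 CPM in PBS, 25.9 against 7.12 CPM in mono-IL10 and 29.7 against 16.1 CPM in IL10/2-Trikine. A tumor marker was found in 8.03% against 4.31%, 7.17% against 4.70% and 8.72% against 5.22% of these cells, so the sums rested on few cells. Thinned to 2000 UMIs, a Clu UMI was found in 6.93% to 9.01% of macrophages of the IL10/2-Trikine mice and in 5.08% to 10% of their T and NK cells. In PBS the shares were 2.09% to 4.21% and 0% to 7.14%, and in mono-IL10 2.60% to 3.93% and 1.83% to 7.77%. The ranges of these shares overlapped between macrophages and T and NK cells in each treatment. The latter rested on 35 to 215 cells per mouse before thinning and had no keratin limit. In them the 5 tumor markers summed to means of 44.2, 36.2 and 51.9 CPM in PBS, mono-IL10 and IL10/2-Trikine. The means in macrophages were 7.85, 9.18 and 19.1 CPM. In level, Clu was at 83.9 CPM in macrophages (55.4 to 119) and 43.4 CPM in T and NK cells (23.3 to 74.9) of IL10/2-Trikine mice. The means were 22.5 and 14.0 CPM for PBS, and 15.2 and 26.0 CPM for mono-IL10. The part of tumor RNA in the Clu of macrophages was not tested.

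The size of the Clu difference depended on how many keratin UMIs a macrophage was allowed. Macrophage-like barcodes past the filters had median depths of 5655, 6655 and 3179 UMIs in PBS, mono-IL10 and IL10/2-Trikine. A fixed limit thus allowed more keratin per UMI with IL10/2-Trikine. Krt8 had a UMI in 5.14%, 5.24% and 6.28% of these barcodes, at 7.67, 6.83 and 17.0 CPM. The part of depth in the difference was not tested. For IL10/2-Trikine against mono-IL10 the log2 fold change was 3.01 with fewer than 5 Krt8 and Krt18 UMIs, 2.31 with at most 1, 1.63 with 0 and 1.49 with none of Krt8, Krt18, Krt19 and Krt7. Against PBS it was 2.15, 1.81, 1.29 and 1.21. In the macrophages without keratin Clu was at 18.8, 14.8 and 46.3 CPM, and the IL10/2-Trikine mice, at 35.7 to 55.9 CPM, all lay above the highest other mouse, at 23.5 CPM. Cp against mono-IL10 went from 2.97 to 1.08 over the same 4 limits, and against PBS from 1.13 to -0.07, a change of direction. Saa3 did not move in this way, with 2.18, 2.18, 2.11 and 2.14 for mono-IL10 against PBS. Its means were 0.518 to 3.93 CPM in tumor cells and 8.40 to 35.1 CPM in macrophages, so keratin limits could hardly move it. In fibroblast-like cells its means were 58.7 to 149 CPM and in neutrophil-like cells 79.7 to 201 CPM. The part of fibroblast and neutrophil RNA in the Saa3 of macrophages was not tested. In macrophages with a Saa3 UMI tumor markers were at 8.01, 5.27 and 8.03 CPM, against 7.90, 9.34 and 18.3 CPM in those without. A tumor marker was found in 6.82%, 3.59% and 3.10% of the former and 4.58%, 4.99% and 5.73% of the latter.

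**Figure D5:**
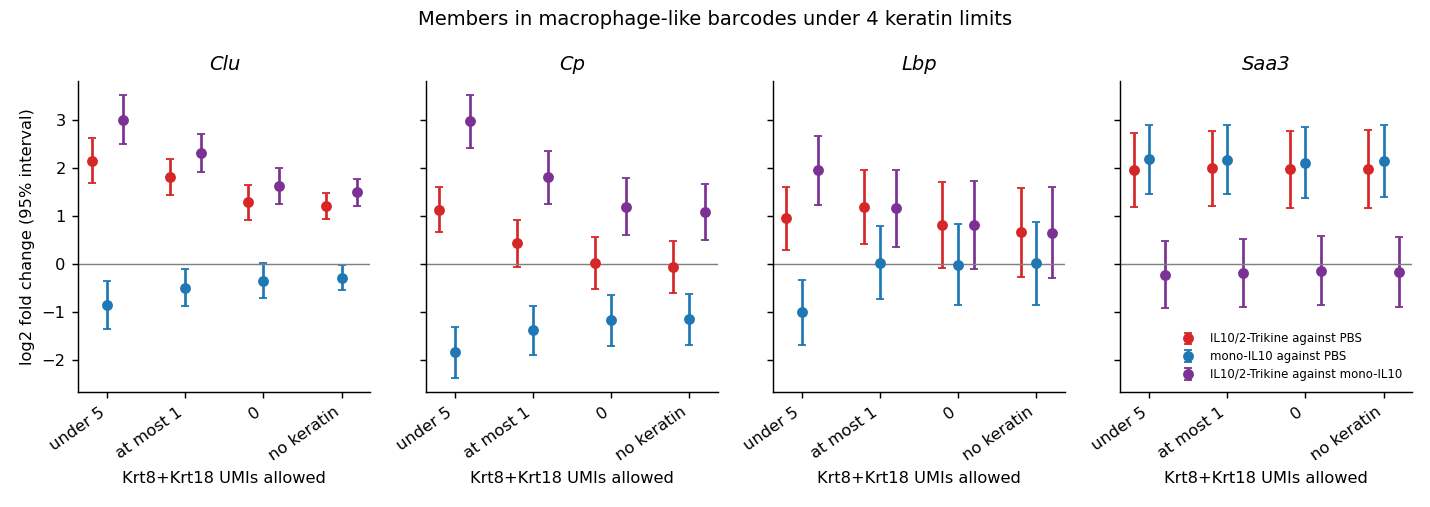
Log2 fold change with its 95% interval of Clu, Cp, Lbp and Saa3 in macrophage-like cells under 4 limits on keratin UMIs, for each comparison. Clu for IL10/2-Trikine against mono-IL10 goes from 3.01 at the loosest limit to 1.49 at the strictest, and Saa3 for mono-IL10 against PBS stays between 2.11 and 2.18. Tumor cells hold little Saa3, so the limits could hardly move it.

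Lcn2 in macrophage-like cells came with neutrophil RNA. Macrophages with an Lcn2 UMI held neutrophil markers at 10546, 9515 and 13684 CPM, against 2373, 1637 and 1589.5 CPM in those without one. The part of neutrophil RNA in the Lcn2 level was not tested.

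The treatment contrasts in other cell classes had not been used to choose the genes, so the members were tested there with edgeR's quasi-likelihood test and Benjamini-Hochberg adjustment over all genes of the class. In neutrophil-like cells Lcn2 was at 105 CPM ± 42.7 (SD, n = 5) in PBS, 75.3 ± 10.7 (SD, n = 5) in mono-IL10, and 126 and 19.1 CPM in the pair of IL10/2-Trikine mice that reached the minimum of 20 cells, with 47 and 35. It did not pass the test in any comparison, with edgeR adjusted p from 0.633 to 0.983. The cell filters had kept 545 of 4822 neutrophil-like barcodes in PBS, 606 of 3559 in mono-IL10 and 210 of 2010 in IL10/2-Trikine. The neutrophil-like values therefore describe a small part of the class. Clu was at 42.6 CPM ± 37.7 (SD, n = 5) in PBS, 35.5 ± 22.4 (SD, n = 5) in mono-IL10, and 148 and 258 CPM in the IL10/2-Trikine mice, both above all other mice. The share of all genes that separate 2 mice from 5 was not counted in this class, so this separation is a description only. Cp also lay higher in both of these mice, at 86.2 and 148 CPM, than in PBS, at up to 81.2 CPM. Cp overlapped with mono-IL10. The log2 fold change of Clu was 2.25 ± 0.61 (SE) against mono-IL10 (edgeR adjusted p 0.052) and 2.19 ± 0.61 against PBS (edgeR adjusted p 0.161). The 5 tumor markers summed to means of 10.9, 24.5 and 28.7 CPM in these cells of PBS, mono-IL10 and IL10/2-Trikine. Of the class's own markers Il1r2 stood at 2213, 3273 and 1076 CPM, Clec4d at 1292, 1366 and 512 CPM and Hdc at 915, 1316 and 460 CPM, and their part in the result was not tested.

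Saa3 was at 79.7, 92.1 and 201 CPM on average in neutrophil-like cells of PBS, mono-IL10 and IL10/2-Trikine, and 0 of the 5 members passed in 3 comparisons, in which 0%, 0.239% and 4.15% of 5857 genes were called. For IL10/2-Trikine against PBS no gene was called by edgeR, while 638 had an unadjusted p under 0.05 and DESeq2 called 113. Among the members Clu had an unadjusted p under 0.05 in both comparisons with IL10/2-Trikine, and DESeq2 called it in 1, against mono-IL10. Without the filter on low counts, edgeR called 7 of the members' contrasts in the classes tested, among them Clu in neutrophil-like cells for both comparisons with IL10/2-Trikine and Lbp there for mono-IL10 against PBS. The others were Clu and Saa3 in dendritic cell-like cells, Cp in endothelial-like cells and Clu in T and NK cells. The share of all genes called without the filter was not counted in these classes, so the 7 calls are a description only. Of the 47 Saa3 UMIs in dendritic cell-like cells of mono-IL10, 1 cell held 44. With the filter, Clu was the only member with enough UMIs to be tested in dendritic cell-like and endothelial-like cells. In dendritic cell-like cells its log2 fold change was -1.73 ± 0.62 (SE) for mono-IL10 against PBS (edgeR adjusted p 0.638). This rested on 2 mono-IL10 mice, at 15.6 and 47.8 CPM, and 5 PBS mice, and 0.0232% of 4309 genes were called. In endothelial-like cells PBS mice averaged 108 CPM ± 53.5 (SD, n = 4) and IL10/2-Trikine mice 155 CPM ± 69.9 (SD, n = 5), with a log2 fold change of 0.52 ± 0.34 (edgeR adjusted p 0.642), where 0.16% of 5614 genes were called. In the annotated T and NK cells no member had enough UMIs to be tested with the filter.

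Other acute-phase genes were taken as a list of 30, of which 16 could be tested in tumor cells. The complement gene C3 was their highest, at 791 CPM in PBS, followed by the metallothionein Mt2 at 284 CPM and the IL-1 antagonist Il1rn at 175 CPM. The liver genes Fga, Fgg and Apcs had means of at most 0.0397 CPM in any treatment, and Hp was at 9.28 CPM. With IL10/2-Trikine against PBS 1 gene rose, C4b by 0.69 ± 0.18 (log2, SE; edgeR adjusted p 0.011), and 1 fell, Il1rn at -0.38 ± 0.09 (edgeR adjusted p 0.00701), where 23.1% of all genes tested were called. For mono-IL10 against PBS, where 5.63% were called, the heme carrier Hpx rose by 0.76 and Mt2 by 0.48. Crp and C3 rose by 0.69 and 0.33 and Hpx, Il1rn, Mt2 and Cfb fell for IL10/2-Trikine against mono-IL10, where 35.4% were called. The list's median log2 fold change was 0.15, -0.07 and 0.19 in the same order, against a median between -0.01 and 0.01 over all genes. Macrophage and fibroblast markers were also higher on average in these barcodes with IL10/2-Trikine, and their part in the result was not tested.

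In macrophage-like cells 10 of the 30 acute-phase genes could be tested, and several were higher with both cytokines. For mono-IL10 against PBS Mt2 rose by 1.74 ± 0.17 (log2, SE; edgeR adjusted p 1.54e-06), C4b by 1.42, Lrg1 by 0.63 and Il1rn by 0.55, and 0 fell, where 24.3% of 13274 genes were called. For IL10/2-Trikine against PBS C4b rose by 1.60 ± 0.19 (edgeR adjusted p 1.82e-05), Mt2 by 1.27 and Lrg1 by 0.57, and 0 fell, where 20.5% were called. Between the cytokines Il1rn and Mt2 were lower with IL10/2-Trikine, at -0.63 and -0.48, where 21.9% were called. In fibroblast-like cells 6 genes of the list were tested and 0 passed in any comparison by edgeR, in which 0.951%, 0.014% and 3.69% of genes were called for IL10/2-Trikine against PBS, mono-IL10 against PBS and IL10/2-Trikine against mono-IL10. Of those 6 genes 0, 1 and 2 had an unadjusted p under 0.05, and DESeq2 called 0.

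Genes of the IL-6 family and STAT3, a list of 22, moved in both directions. In macrophage-like cells mono-IL10 mice had higher levels than PBS mice of the feedback inhibitor Socs3, by 0.58 ± 0.08 (log2, SE; edgeR adjusted p 5.63e-05), Stat3 by 0.45, Cebpd by 0.41 and Il10rb by 0.19. The kinase gene Jak2 was lower, at -0.24, so that 5 of 19 tested genes were called. With IL10/2-Trikine against PBS Stat3 was higher by 0.39 and the receptor gene Lifr by 0.38, and 5 were lower, Lif at -1.01, Jak2 at -0.37, Il10ra at -0.31, Cebpb at -0.22 and Il6ra at -0.19. Against mono-IL10 the receptor gene Osmr was higher by 1.02 and Pias3, an inhibitor of STAT3, by 0.75, and 7 genes were lower, led by Socs3 at -0.73 (edgeR adjusted p 1.57e-05) and followed by Il10ra at -0.43, Cebpb at -0.40, Osm at -0.39, Cebpd at -0.34 and Il10rb at -0.31. Tumor markers in these macrophage-like barcodes averaged 9.18 CPM with mono-IL10 and 19.1 CPM with IL10/2-Trikine, and fibroblast markers 734 and 1418 CPM. Their part in these results was not tested. In fibroblast-like cells 0 of 16 passed in any comparison by edgeR or DESeq2, with 2, 2 and 3 at an unadjusted p under 0.05.

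In tumor cells 0 of the 22 genes passed for mono-IL10 against PBS by either tool, with 1 at an unadjusted p under 0.05. For IL10/2-Trikine against PBS 5 rose and 5 fell. The risers with the greatest changes were the IL-10 receptor gene Il10ra, by 1.36, Lifr by 0.46, Il11ra1 by 0.44, Pias3 by 0.37 and Il10rb by 0.20, and Lif fell by 0.46, Bcl3 fell by 0.34 and Cebpb fell by 0.32. Between the cytokines 6 rose and 8 fell with IL10/2-Trikine. Il10ra rose by 2.08, Osm by 1.99, Lifr by 0.67 and Pias3 by 0.44, and Il11 fell by 1.33, Lif fell by 0.59, Cebpd fell by 0.42 and Cebpb fell by 0.42. Il10ra and Osm, which leukocytes express, were at 2.87 CPM ± 2.21 and 7.19 CPM ± 6.97 (SD, n = 5) with IL10/2-Trikine, in barcodes where the macrophage markers were also higher, whose part in the result was not tested. The share of the list called in macrophage-like cells was 26.3%, 36.8% and 47.4% for mono-IL10 against PBS, IL10/2-Trikine against PBS and IL10/2-Trikine against mono-IL10, beside 24.3%, 20.5% and 21.9% of all genes, so the first was near the background. In tumor cells it was 0%, 45.5% and 63.6%, beside 5.63%, 23.1% and 35.4%.

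Of 19 genes of the NF-kB list in tumor cells, 4 rose with IL10/2-Trikine against PBS, Il1a by 1.04 (log2), Il1b by 0.97, Tnf by 0.96 and Cxcl2 by 0.86. The leukocyte genes among them moved with the macrophage and neutrophil markers given above, whose part in the result was not tested. Relb fell by 0.26 and Il1r1 fell by 0.23. Against mono-IL10 4 rose and 10 fell, with Il1b at 1.66, Il1a at 1.08, Tlr2 at 0.92 and Tnf at 0.54 on the one side and the chemokine genes Ccl2 at -0.90, Ccl20 at -0.75 and Cxcl1 at -0.69 and the inhibitor Nfkbia at -0.62 on the other. For mono-IL10 against PBS 1 was called, Nfkbia, higher by 0.46.

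In macrophage-like cells 6 of 18 genes of the NF-kB list rose with mono-IL10 against PBS, Nfkbia by 0.57, Tnfrsf1a by 0.32, Nfkbiz and Rela by 0.29 each, Tnfaip3 by 0.24 and Nfkb2 by 0.21, and Nfkb1 fell, at -0.42. With IL10/2-Trikine 0 of 18 rose against PBS and 5 fell, Nfkb1 at -0.56, Il1a at -0.48, Cxcl2 at -0.45, Il1b at -0.41 and Tlr2 at -0.33. Against mono-IL10 0 rose and 10 fell, led by Nfkbia at -0.71, Il1b at -0.70, Il1a at -0.61 and Tnf at -0.58, with Il1r1, Nfkbiz, Relb and Tnfaip3 between -0.46 and -0.33. The 10 neutrophil markers in macrophage-like cells summed to 2386 to 2795 CPM in PBS, 1329.7 to 1970.2 CPM in mono-IL10 and 1346 to 2211 CPM in IL10/2-Trikine, lower in all treated mice than in every PBS mouse. Neutrophils also express Il1b, Cxcl2, Tlr2 and the receptor gene Fpr2, and the part of neutrophil RNA in these results was not tested. In fibroblast-like cells edgeR called 1 of 15 genes, the chemokine gene Ccl2, lower with IL10/2-Trikine at -0.995 against PBS (edgeR adjusted p 0.039) and -0.93 against mono-IL10 (edgeR adjusted p 0.0255). DESeq2 also called Nfkbia there against mono-IL10, and 4, 1 and 6 genes had an unadjusted p under 0.05 for IL10/2-Trikine against PBS, mono-IL10 against PBS and the cytokines against each other. In the order used for the IL-6 list, 5.26%, 31.6% and 73.7% of the NF-kB list were called in tumor cells and 38.9%, 27.8% and 55.6% in macrophage-like cells, beside the same shares of all genes.

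Receptors and partners of the members formed a list of 22. In macrophage-like cells the iron exporter Slc40a1, the partner of ceruloplasmin, fell by 1.94 ± 0.23 (log2, SE; edgeR adjusted p 1.2e-05) with mono-IL10 and fell by 1.49 ± 0.25 (edgeR adjusted p 0.000417) with IL10/2-Trikine, both against PBS. With mono-IL10 the serum amyloid receptor Fpr2 and the clusterin receptor Lrp8 also fell, at -0.77 and -0.56, and 3 of 18 rose, the zinc and iron importer Slc39a14 by 0.68, Tlr4 by 0.40 and the copper importer Slc31a1 by 0.29. With IL10/2-Trikine 0 rose and 6 fell against PBS. Beside Slc40a1 these were Lrp8 at -0.86, the ferritin gene Fth1 at -0.66, Cd14, which receives lipid from Lbp, at -0.52, the iron transporter Slc11a2 at -0.50 and Scarb1 at -0.36. Against mono-IL10 Fpr2 was higher by 0.54, and 6 genes were lower, Slc39a14 at -0.71, Cd14 at -0.69, Fth1 at -0.60, Slc11a2 at -0.49, Tlr4 at -0.39 and Trem2 at -0.30.

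In tumor cells 3 of 20 receptors and partners rose and 3 fell for IL10/2-Trikine against PBS. Trem2, a clusterin receptor of macrophages, rose by 1.74, with levels of 5.40 against 1.496 CPM, and Fpr2 by 0.96, together with the macrophage markers, whose part in the result was not tested. The copper chaperone Atox1 rose by 0.20, while the heme oxygenase Hmox1 fell by 0.69, the copper pump Atp7a fell by 0.25 and the ferritin gene Ftl1 fell by 0.15. For mono-IL10 against PBS Ly96, Atox1 and Ftl1 rose by 0.25, 0.21 and 0.20, and Fpr2 fell by 1.02. For IL10/2-Trikine against mono-IL10 5 rose and 4 fell, with Trem2 at 2.32, Fpr2 at 1.98, Slc40a1 at 0.58 and Atp7b at 0.53, and with Hmox1 at -0.90, Ftl1 at -0.35, Fth1 at -0.27 and Ly96 at -0.20. In fibroblast-like cells 0 of 11 passed in any comparison by edgeR or DESeq2, with 1, 0 and 1 at an unadjusted p under 0.05. In the order used for the IL-6 list, 20%, 30% and 45% of the tested genes were called in tumor cells and 33.3%, 33.3% and 38.9% in macrophage-like cells, beside the same shares of all genes.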

How the data were processed

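Single-cell RNA of 3 pooled tumor libraries had been sequenced with 10x Genomics 5′ chemistry and hashtag antibodies, and 15 mice were told apart by hashtag. Raw UMI counts for every gene, hashtag and barcode form the deposited matrices, which the authors made with Cell Ranger 9.0.1 on GRCm39 without normalization. The authors' annotation table gives the type and mouse of T and NK cells only, and 7858 further cells in it, from a treatment without a sample in these data, were not used. Seurat 5.1.0 and DESeq2 1.46.0 are named in the submitters' processing notes.

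Hashtags were called again with HTODemux (Seurat 5.3.0, quantile 0.99). Cell classes were set by marker UMIs, a barcode meeting 2 sets being left out, and a mouse needed 20 cells of a class. Summed counts were fitted per class with edgeR 4.0.16 (glmQLFit, glmQLFTest, TMM scaling, filterByExpr, limma 3.58.1, R 4.3.3), with all 3 treatments in 1 fit and calls at an adjusted p under 0.05. Fold changes come from this fit, and CPM from mouse totals. Single-cell shares were also computed with cells thinned to 2000 UMIs (Python 3.11.15, numpy 2.4.6, pandas 2.3.3, scipy 1.17.1). The edgeR fit was also run on counts simulated from tumor epithelial and macrophage-like sums, with the same spread for every gene. That run does not cover the sparser classes in which the members were tested. Mice are separate animals in 1 library per treatment, so p-values cover the spread between animals only.

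The 5 members and all gene lists were chosen with earlier results of these data known, and so were the tests. Named genes were the members in every class, the called genes of each list (up to 8 by size of change), and the 3 genes most like each member. Genes shown as levels only (C3, Hp, Fga and the like) were named after their values were seen. Alternatives were DESeq2 1.42.0, no filter on low counts, other gates and hashtag rules, and each mouse left out. Library totals, thinned sums, exclusion of all keratin UMIs and exclusion of macrophage UMIs were added after the data had been seen. Promoters came from RefSeq tables of GRCm38.p6, used for sequence only. Free RNA in droplets was not removed.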

Additional observations from a re-analysis of the deposited data

Results flagged for a closer look

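Of 53 groups of mice in which a member had at least 10 UMIs, 12 held a mouse far from the other 4 by Dixon's criterion. For normally distributed values chance gives about 1 in 20. CPM of sparse counts are skewed, each flagged mouse was the highest of its group, and the members of a mouse are not independent. The 12 are therefore not read as an excess over that rate. In tumor epithelial cells the flagged value was Saa3 in IL10/2-Trikine mouse 1, at 12.1 CPM with the next mouse at 2.56 CPM. The macrophage and fibroblast markers were also highest in that mouse, and their part was not tested.

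The same mouse stood apart in fibroblast-like cells for Lcn2, at 29.7 CPM with the next at 1.90 CPM, and for Saa3, at 467 CPM with the next at 110.1 CPM. Mono-IL10 mouse 1 did so for Saa3 in fibroblast-like cells, at 438 CPM with the next at 19.6 CPM. Among fibroblast-like cells of IL10/2-Trikine, 1 cell held 10 of 12 Lcn2 UMIs and 1 held 158 of 306 Saa3 UMIs. Among those of mono-IL10, 1 cell held 142 of 275 Saa3 UMIs. In macrophage-like cells IL10/2-Trikine mouse 1 was highest for Lcn2, at 8.49 CPM with the next at 5.37 CPM.

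Mono-IL10 mouse 5 stood apart in macrophage-like cells for Lbp, at 7.77 CPM against 3.25 CPM, and for Clu, at 19.3 CPM against 15.01 CPM, and in neutrophil-like cells for Lbp, at 185 CPM against 51.4 CPM, and for Cp, at 275 CPM against 69.0 CPM. IL10/2-Trikine mouse 4 was highest for Lbp in macrophage-like cells, at 16.1 CPM against 8.37 CPM. In neutrophil-like cells PBS mouse 1 was highest for Clu, at 108 CPM against 41.7 CPM, and mono-IL10 mouse 2 for Saa3, at 289 CPM against 80.1 CPM.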

How the results depend on the processing

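No paired analysis was possible because the hashtag numbers only name mice and the labels give the treatments no shared replicate. Of 478 values under another setting, 426 counted as unchanged. For fold changes in tumor epithelial, fibroblast-like and macrophage-like cells this meant a move smaller than the SD between mice of a group. For fold changes in other classes it meant the same direction and side of the threshold. For counts of genes it meant a ratio to the text's setting within a fixed limit.

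Without tumor barcodes holding macrophage UMIs, 1692 tumor genes were called for IL10/2-Trikine against PBS, 542 for mono-IL10 against PBS and 3032 between the cytokines, and Saa3 differed by 1.16 and, reversed, by -0.45 in the first 2. For mono-IL10 against PBS 2292 genes were called with library totals, 550 without a filter and 450 with thinned sums, against 839 in the text's setting. Library totals shifted the median gene by -0.11 there, made 9.08% of calls higher against 74.97% and turned Cp to -0.062. Saa3 was 1.34 with at least 20 keratin UMIs. Between the cytokines library totals moved the share of calls higher from 46.8% to 71.0% in tumor cells and from 48.2% to 79.9% in macrophage-like cells. For IL10/2-Trikine against PBS it moved from 46.7% to 38.7% and from 49.6% to 59.4%. For mono-IL10 against PBS in macrophage-like cells it moved from 51.2% to 27.0%. Counts of genes that rose and fell thus depend on the scaling.

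In fibroblast-like cells 127 (DESeq2), 41 (leading hashtag), 161 (no filter), 40 (leading hashtag, no cell filters) and 33 (thinned sums) genes were called for IL10/2-Trikine against PBS, and 45, 3, 60, 3 and 0 for mono-IL10 against PBS. Between the cytokines 507 were called without a filter and 143 with thinned sums, and list genes called were 21 without a filter. Clu differed by 2.74 and 1.73 with under 5 keratin UMIs.

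In macrophage-like cells thinned sums gave 1280, 1231 and 1130 genes for IL10/2-Trikine against PBS, mono-IL10 against PBS and between the cytokines, 43 list genes, and -0.83 for Clu with mono-IL10. Under 5 keratin UMIs gave, against PBS, Cp 1.13 and Clu 2.15 with IL10/2-Trikine and Lbp -0.998 (reversed), Cp -1.83 and Clu -0.85 with mono-IL10, and between the cytokines Lbp 1.95, Cp 2.97 and Clu 3.01. With 0 keratin UMIs Clu was 1.29 against PBS and Clu 1.63 and Cp 1.19 between the cytokines. Without any of 4 keratins Cp was -0.067 (reversed) and Clu 1.21 against PBS, and Cp 1.08 and Clu 1.49 between the cytokines. Members past the threshold in the other classes were 1 with DESeq2 (Clu in neutrophil-like cells) and 7 without a filter, where the share of all genes called was not counted. The cause of these changes was not tested.

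With each mouse left out in turn, tumor genes called ranged from 463 to 1089 for mono-IL10 against PBS. Saa3 in tumor cells ranged from 1.89 to 3.27 against PBS and from 1.25 to 2.38 between the cytokines, lowest without IL10/2-Trikine mouse 1. Fibroblast-like genes ranged from 6 (without IL10/2-Trikine mouse 5) to 78, from 0 to 5 and from 144 to 268, list genes there from 1 to 3, and Saa3 there from -2.29 to 0.71 for mono-IL10 against PBS and from -0.17 to 3.51 between the cytokines. In neutrophil-like cells IL10/2-Trikine had 2 mice, so leaving out 1 assumes that the lone mouse varies like the other groups. There Lbp ranged from -4.75 to 1.73 and from -6.87 to 0.16, Lcn2 from -2.54 to 0.15 and from -2.15 to 0.55, against PBS and mono-IL10 in turn. For mono-IL10 against PBS Clu ranged from -0.65 to 0.53 and Saa3 from -0.92 to 0.99. Members past the threshold ranged from 0 to 1. Depth limits Saa3 in tumor cells and every member in neutrophil-like, dendritic cell-like and T and NK cells.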
